A study of Mus musculus with 6 samples.

Results

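The genes Psmc1 to Psmc6 encode the ATPases Rpt1 to Rpt6 of the proteasome, and 1 of them, Psmc4, is the gene of Rpt3 that was deleted in the knockout mice. They were taken as every non-control probe whose gene name in the scanner files is Psmc1, Psmc2, Psmc3, Psmc4, Psmc5 or Psmc6, which gave 9 probes for 6 genes among 55681 probes with 34797 gene names. RNA came from sorted C57BL6 satellite cells, which repair and rebuild muscle fibres. In 3 knockout mice Rpt3 was lost specifically in satellite cells, and 3 control mice were sorted in the same way as far as the labels say. Each mouse gave 1 Agilent array in 1 colour (Cy3), from 5 ng of total RNA that was amplified over the whole transcriptome. The labels name no Cre driver, no deleted exon, no age of the mice and no genotype of the controls beyond the word control.

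The proteasome degrades proteins tagged with ubiquitin. Its 20S core is a closed barrel, and the 19S particle that caps it binds the tagged substrate, unfolds it and feeds it into the barrel. Together the Rpt proteins form the ring at the base of the 19S particle that spends ATP to do so, each in a single place of the ring. The ring is built from pairs, with Rpt3 (Psmc4) beside Rpt6 (Psmc5), Rpt1 (Psmc2) beside Rpt2 (Psmc1) and Rpt4 (Psmc6) beside Rpt5 (Psmc3). In mammalian cells, loss of proteasome activity is known to raise transcription of proteasome genes together through the factor NRF1, the product of Nfe2l1.

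The array holds 1 probe each for Psmc4, Psmc5 and Psmc6 and 2 each for Psmc1, Psmc2 and Psmc3. All 9 are 60 bases long and were spotted once on each array. The 4 probes printed here are those of Psmc4, on which the check of the knockout rests, and those of its sisters Psmc5, Psmc1 and Psmc3 that hold no AATAAA, the signal near the end of most messenger RNAs.
Psmc4 (A_52_P10254): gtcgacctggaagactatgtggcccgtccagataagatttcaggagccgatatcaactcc
Psmc5 (A_52_P657435): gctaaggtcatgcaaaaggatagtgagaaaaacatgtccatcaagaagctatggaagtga
Psmc1 (A_55_P2009064): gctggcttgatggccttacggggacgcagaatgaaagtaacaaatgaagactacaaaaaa
Psmc3 (A_55_P2121961): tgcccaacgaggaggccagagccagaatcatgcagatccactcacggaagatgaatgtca
The probe of Psmc6 and those with the signal are given by name and position. The Psmc4 probe lies on the minus strand at chr7:28827132-28827373 of build mm9. Its 60 bases span 242 bp there, so it crosses a splice junction within exons. The Psmc5 probe, at chr11:106124192-106124376, spans 185 bp and also crosses one. The other probes cover 57 or 60 bp of the genome without a gap for an intron: A_55_P2009064 and A_55_P2033863 of Psmc1 at chr12:101361283-101361342 and chr12:101361515-101361574, A_55_P2121961 and A_55_P2103429 of Psmc3 at chr2:90898252-90898311 and chr2:90899526-90899585, and A_66_P112623 of Psmc6 at chr14:45968533-45968592. The 2 probes of Psmc2, A_55_P2051874 at chr5:21309546-21309602 and A_55_P2103422 at chr5:21309536-21309595, share a stretch of 50 bases and are close to a repeat of 1 measurement. No member probe shared 20 bases with a probe of another gene on the array, on either strand, and between members of different genes the longest shared stretch was 8 bases.

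Values are on a log2 scale on which each array was set to its own 75th percentile, so 0 is the signal of that percentile, and they are listed in the order of replicates 1, 2 and 3 of each group. They compare arrays for 1 probe and do not rank different probes. All 9 probes were well above background on all 6 arrays, with signals at least 4.38 times the lowest signal of any probe well above background on the same array. Of all probes, 44.2% to 57.9% were well above background, with both extremes on knockout arrays (knockout 3 and knockout 1). Knockout 3 also stood apart on principal component 1 (28.8% of the variance), at 84.3 against -30.9 to 5.19 on the other arrays. All arrays lay on the same slide, per the file headers, with knockout 1 and 2 in slide row 1 and knockout 3 and the controls in slide row 2. Each difference is therefore also given for knockout 3 alone against the controls, the only comparison within 1 slide row.

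Psmc4 had a lower signal in each knockout sample than in any control sample. Its values were 2.05, 2.07 and 1.54 on the knockout arrays, against 2.93, 2.61 and 2.87 on the control arrays. The lowest control lay 0.55 above the highest knockout sample, and knockout 3 was the lowest array of all. The difference was -0.92 (SE 0.24, 95% interval -1.48 to -0.36), the knockout mean being 1.89 ± 0.30 (SD, n = 3) and the control mean 2.80 ± 0.17 (SD, n = 3), or 0.529 of the control signal (interval 0.358 to 0.780). It did not pass over all probes (limma, adjusted p = 0.409), and an exact permutation test gave 0.1, its lower limit with 3 arrays a group. Before any scaling between arrays the processed signal was 445, 328 and 183 on the knockout arrays, against 668, 532 and 583 on the control arrays, and the scanner's own error was 18.7 to 66.8 per spot. The groups thus were apart on the unscaled scale as well. Knockout 3 taken alone gave -1.27 (limma adjusted p = 0.254 when slide row was a block and 0.318 in row 2 only), and for the mean of knockout 1 and 2 it was -0.75. The labels do not place the deleted part, so if the probe lies outside it the signal checks nothing about the deletion. In sorted cells a lower signal in every cell and a share of cells with an intact gene cannot be told apart.

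**Figure D1:**
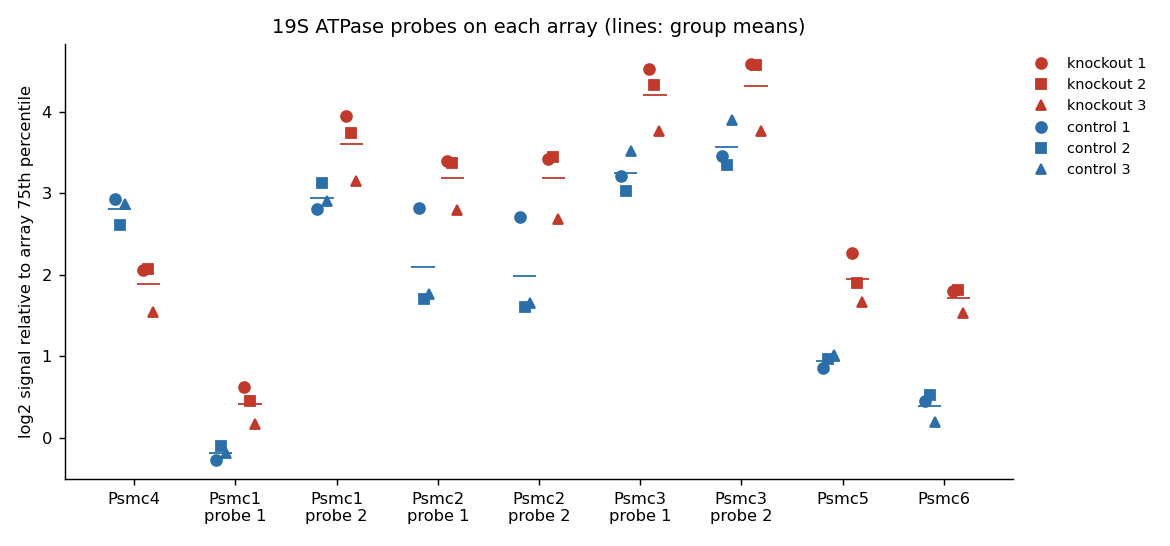
Log2 signal of each 19S ATPase probe on each array, relative to the array's 75th percentile. Circles, squares and triangles are replicates 1, 2 and 3 of knockout (red) and control (blue) mice, short lines are group means, and the probes of 1 gene are ordered by probe name. Psmc4 is the only gene of the 6 whose knockout samples all lie below the controls.

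The 5 sister ATPases differed in the other direction, with a higher mean in knockout cells for each of their 8 probes, from 0.60 to 1.33. None passed over all probes, where 0% passed in either direction (0 of 26109), the smallest adjusted p was 0.0939 and 1921 had an unadjusted p under 0.05. That looser threshold was met by all 8 sister probes, beside 2.93% of all tested probes in their direction, and by Psmc4, beside 4.42% in the other direction. In 5 of the 8 sister probes every knockout sample lay above every control sample, beside 5.28% of all tested probes. In the other direction, in which Psmc4 lay, 5.86% of all tested probes had groups that did not overlap.

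Psmc5 encodes Rpt6, the neighbour of Rpt3 in its pair. Its values were 2.27, 1.90 and 1.66 on the knockout arrays, against 0.86, 0.96 and 1.01 on the control arrays. The controls lay close together, and the highest of them was 0.65 below the lowest knockout sample. The difference was 0.999 (SE 0.23, interval 0.45 to 1.54, limma adjusted p = 0.361), or 2.0-fold, and for knockout 3 alone it was 0.72.

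Psmc6, the gene of Rpt4, showed the widest gap between the groups of all 9 probes. Its values were 1.80, 1.81 and 1.53 on the knockout arrays, against 0.44, 0.52 and 0.19 on the control arrays. The lowest knockout sample lay 1.01 above the highest control. The difference was 1.33 (SE 0.22, interval 0.82 to 1.83), or 2.51-fold, the 38th smallest p of 26109 probes (limma, adjusted p = 0.231). It was 1.14 for knockout 3 alone, and with array weights, which counted knockout 3 least (0.272) and knockout 2 most (4.15), it was 1.42 and passed (adjusted p = 0.0390).

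Psmc3 encodes Rpt5, the partner of Rpt4, whose tail docks into the 20S core and helps to open it. Its probe A_55_P2103429 read 4.52, 4.32 and 3.76 on the knockout arrays, against 3.22, 3.02 and 3.51 on the control arrays. These groups did not overlap. The other probe, A_55_P2121961, read 4.59, 4.58 and 3.77 in the knockout samples and 3.46, 3.34 and 3.90 in the controls. Here knockout 3 lay 0.13 below control 3, so the groups overlapped. The differences were 0.95 (SE 0.27, limma adjusted p = 0.454) and 0.75 (SE 0.30, limma adjusted p = 0.647), and for knockout 3 alone they were 0.51 and 0.20.

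Psmc1 encodes Rpt2, a further subunit whose tail helps to open the core, and had the smallest differences of the sisters. Its probe A_55_P2033863 read 3.95, 3.74 and 3.15 on the knockout arrays, against 2.81, 3.13 and 2.90 on the control arrays. Knockout 3 exceeded control 2 by only 0.02. Probe A_55_P2009064 read 0.62, 0.45 and 0.16 in the knockout samples and -0.27, -0.10 and -0.20 in the controls, with a gap of 0.26. The differences were 0.67 (SE 0.27, limma adjusted p = 0.647) and 0.60 (SE 0.22, limma adjusted p = 0.597), and for knockout 3 alone they were 0.20 and 0.35.

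Psmc2, the gene of Rpt1, was the one sister whose groups overlapped in both probes. Probe A_55_P2051874 read 3.39, 3.37 and 2.79 on the knockout arrays, against 2.82, 1.70 and 1.77 on the control arrays. Control 1 lay over 1 log2 unit above the other controls and 0.03 above knockout 3. The overlapping probe A_55_P2103422 read 3.42, 3.45 and 2.68 on the knockout arrays, against 2.71, 1.60 and 1.65 on the control arrays, so control 1 again exceeded knockout 3. The differences were 1.09 (SE 0.36) and 1.20 (SE 0.37; limma adjusted p = 0.530 and 0.490), the widest errors of the 9 probes, and the exact permutation p was 0.2 for both. For knockout 3 alone they were 0.70 and 0.69, and without control 1 they were 1.45 and 1.56.

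**Figure D2:**
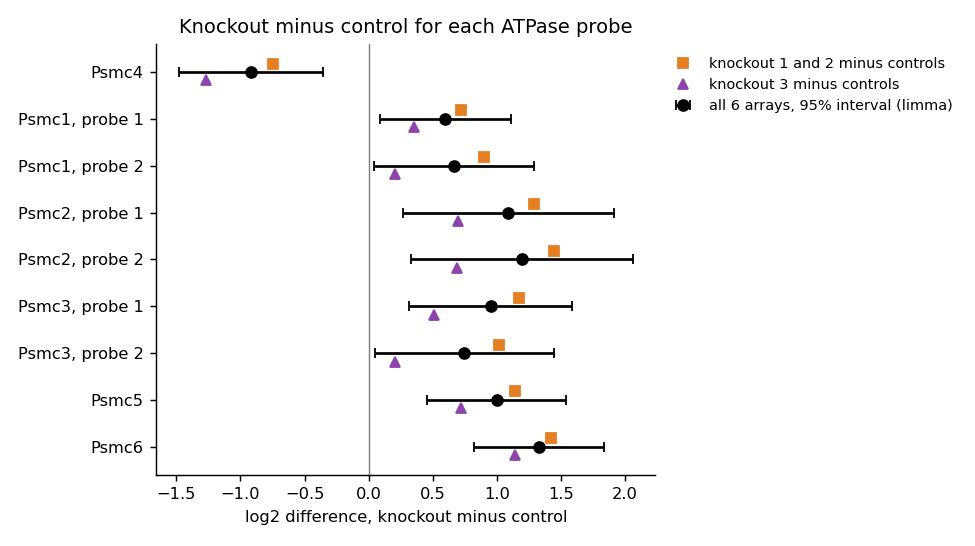
Log2 difference of knockout minus control for each probe. Black points with bars give the difference over all 6 arrays with its 95% interval from limma, squares the mean of knockout 1 and 2 minus the control mean, and triangles knockout 3 minus the control mean. The Psmc4 points lie left of 0 and all sister points right of 0, with knockout 3 nearest to 0 in every sister.

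Across the sisters knockout 3 lay nearest to the controls, whereas for Psmc4 it lay farthest from them. The mean of the sisters' brightest probes read 3.20, 3.08 and 2.58 on the knockout arrays, against 2.08, 1.93 and 1.95 on the control arrays. Knockout 3 was above every control in 5 of the 8 sister probes, in 4 with normexp background correction or median scaling, and in 7 with quantile normalization. Without scaling between arrays, a setting chosen after seeing the data, it was above every control in 2 (Psmc5 and Psmc6) and its difference lay between -0.23 and 0.72, with 5 of 8 above 0. On that scale A_55_P2033863 of Psmc1 and A_55_P2121961 of Psmc3 were below every control in knockout 3, whose 75th percentile was 63.8 beside 81.9 to 90.1 in the controls.

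The ratio of Psmc4 to each sister within an array does not change when a whole array is scaled. For all 5 sisters the highest ratio among knockout mice was below the lowest among controls. Relative to Psmc6, log2 Psmc4 read 0.26, 0.26 and 0.01 on the knockout arrays, against 2.49, 2.10 and 2.68 on the control arrays. The knockout minus control difference of this log2 ratio was -2.25, and it was -1.92 against Psmc5, -2.01 against Psmc2, -1.67 against Psmc3 and -1.59 against Psmc1. These are 3.00-fold to 4.75-fold lower ratios, with gaps between the groups of 1.09 to 1.84 on the log2 scale. The exact permutation p was 0.1 for each of the 5 pairs, and 0.1 adjusted over them, the smallest that the design allows. Unequal change of Psmc4 and its sisters is all that such a ratio shows.

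**Figure D3:**
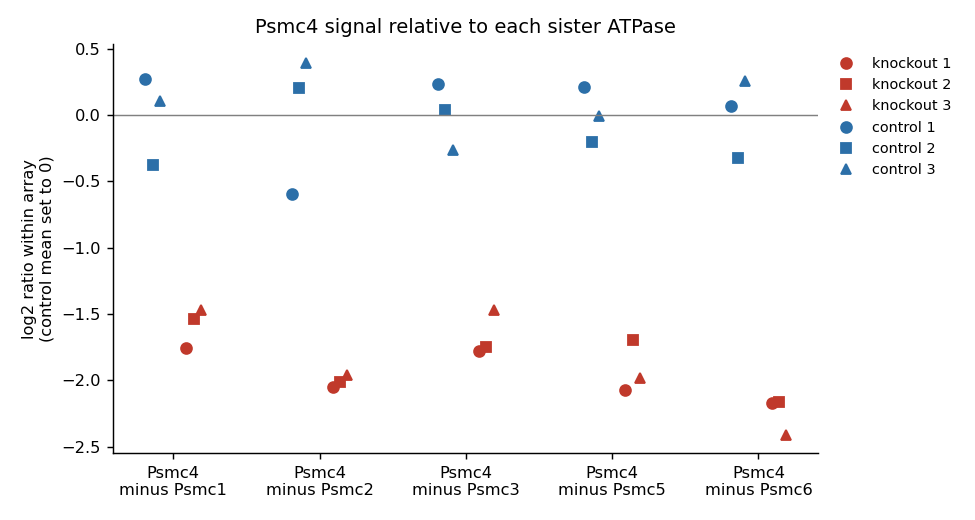
Log2 ratio of Psmc4 to the brightest probe of each sister ATPase within each array, shifted so that the control mean of each ratio is 0. Symbols mark replicates of knockout (red) and control (blue) mice. The 2 groups are apart in all 5 ratios, by at least 1.09.

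Probes of the same gene agreed closely over the arrays. Both read the same amplified RNA on the same array, so their distance leaves out the error of sample, amplification and array. The distance between the 2 overlapping Psmc2 probes varied by 0.08 (SD over 6 arrays), between the Psmc1 probes by 0.14 and between the Psmc3 probes by 0.15. The knockout minus control differences of 2 probes of 1 gene differed by 0.07 for Psmc1, 0.11 for Psmc2 and 0.21 for Psmc3. High values of Psmc2 in control 1 appeared in both probes, which overlap and so are close to a repeat of 1 measurement. As a description over the same 6 arrays, Pearson's r between sisters ran from 0.70 (Psmc1 with Psmc2) to 0.95 (Psmc5 with Psmc6), and between Psmc4 and the sisters from -0.87 (Psmc6) to -0.47 (Psmc3). The arrays share group, slide row and scaling, so these values give no separate evidence.

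Markers of the sorted cells and of other cells were also compared between the groups, and none passed over all probes. Of the 12 satellite cell markers, 8 were well above background on all arrays, and Myf5 was not on any knockout array. Their summed scaled signal was 138 to 159 in knockout and 174 to 229 in control samples, without overlap on this scale. In such linear sums the brightest markers weigh most, and whether the groups overlap depends on the scaling between arrays. Gene by gene the direction was mixed, with 5 of 11 tested markers above 0 and a median of -0.23. In 3 of them the knockout samples were lower without overlap, beside 5.84% of all tested genes. Myf5 (-1.97, SE 0.31), 1 of these 3, was tested only because the controls passed the background flag. Pax7, the defining transcription factor of these cells, differed by 0.17 (SE 0.35). Of 9 red blood cell markers, 8 were on the array and 3 (Hba-a1, Hbb-bs and Slc4a1) were well above background on all arrays, while Ahsp was not on any. The summed scaled signal of the 8 was 17.4, 13.1 and 7.79 on the knockout arrays, against 7.41, 5.02 and 2.52 on the control arrays. The groups did not overlap on this scale, but the place of knockout 3 above control 1 depends on the scaling. The 75th percentile was 63.8 on the former array and 90.1 on the latter. Of the 4 tested genes, 3 were above 0 and 2 (Hba-a1 and Hbb-bt) were higher without overlap, beside 5.06% of all tested genes. Hbb-bt was tested only because the knockout samples passed the background flag. The 10 neutrophil markers, of which only Ly6g was well above background on all arrays, summed to 1.73 to 17.7 in knockout and 1.94 to 4.53 in control samples. The 7 endothelial markers summed to 28.3 to 74.8 in knockout and 27.9 to 95.6 in control samples, with the highest value in control 1. Macrophage markers (8 genes) summed to 723 to 1246 in knockout and 832 to 845 in control samples, fibro-adipogenic markers (7 genes) to 140 to 164 and 150 to 210, and lymphocyte markers (6 genes) to 5.02 to 8.42 and 4.92 to 5.42, all with overlap. The part of these cells in the ATPase values was not tested. In sorted cells, a change in the mix of cells and a change within each cell cannot be told apart here.

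The other subunits of the proteasome differed in the direction of the sister ATPases. With the brightest tested probe standing for each gene, 0 of 17952 genes passed in either direction, groups did not overlap in 5.06% with knockout higher and in 5.84% with knockout lower, and the median difference of all genes was 0.04. At an unadjusted p under 0.05 the shares were 2.77% higher and 4.28% lower. For the 5 sisters the median was 0.999, the groups did not overlap in 3, and all 5 met the unadjusted threshold, as did 6 of 7 alpha ring, 7 of 7 beta ring, 4 of 4 base and 7 of 9 lid genes. All 7 genes of the 20S alpha ring, which holds the gate, had higher knockout means (median 1.03) and 6 did not overlap. Psma1 (1.57, SE 0.29) and Psma5 (1.41, SE 0.27) had the smallest p. In the 20S beta ring, which holds the cutting sites, all 7 genes did not overlap (median 1.08), with Psmb3 at 1.64 (SE 0.29) and Psmb2 at 1.49 (SE 0.31).

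Within the 19S particle, the 4 subunits that share the base with the ATPases stood together with them. All 4 did not overlap (median 1.05), among them Psmd1, the scaffold Rpn2, at 1.50 (SE 0.30) and the ubiquitin receptor Psmd4 at 1.05 (SE 0.23). Of the 9 lid genes all had higher means and 6 did not overlap (median 0.70), with Psmd3 at 1.56 (SE 0.30) and Psmd14, the enzyme that removes ubiquitin from substrates, at 1.16 (SE 0.28). For knockout 3 alone the medians were 0.70 for the sister ATPases, 0.54 for the alpha ring, 0.72 for the beta ring, 0.79 for the base and 0.24 for the lid. None of these genes passed over all probes.

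The 3 tested chaperones that build the ATPase ring had a median of 0.09, whose sign was not stable, since leaving out 1 array moved it between -0.18 and 0.22. Psmd10 (gankyrin), which binds Rpt3 and was named after its value was seen, differed by 0.09 (SE 0.40), Psmd9, which binds the pair of Rpt4 and Rpt5, by 0.31 (SE 0.35), and Psmd5, which binds the pair of Rpt1 and Rpt2, by -0.39 (SE 0.42). Paaf1 was not tested. In all 3 the groups overlapped, and their SEs of 0.35 to 0.42 exceed those of most ATPase probes. Among the 4 tested chaperones of the 20S core the median was -0.15, with Psmg1 at -0.69 (SE 0.26), which did not overlap, and Psmg2 at -0.61 (SE 0.39, above background in 1 of 3 knockout samples). The other 2 had higher knockout means, Pomp at 0.40 (SE 0.28) and Psmg4 at 0.31 (SE 0.31), both with overlap and named after their values were seen. Psmg2 was tested only because the controls passed the background flag, and without it the median was 0.31.

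Among 5 tested regulators, Vcp, the gene of the segregase p97 that also frees NRF1 from the endoplasmic reticulum, differed by 1.03 (SE 0.25) and did not overlap. Nfe2l1 itself differed by -0.58 (SE 0.32) and Nfe2l2 by 0.57 (SE 0.32; named after its value was seen), and both overlapped. NRF1 is known to be controlled largely as a protein, which arrays do not measure. The 14 tested AAA ATPases outside the proteasome, relatives of the Rpt proteins with other tasks, had a median of -0.08, with 5 above 0 and 0 that did not overlap. The 2 with the smallest p were Bcs1l at -0.47 (SE 0.30) and Clpx, the ATPase of a mitochondrial protease, at 0.64 (SE 0.46). Clpx was above background in 2 of 3 control samples and was tested only because the knockout samples passed the background flag. For the lists no test of a difference from the sisters was run.

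**Figure D4:**
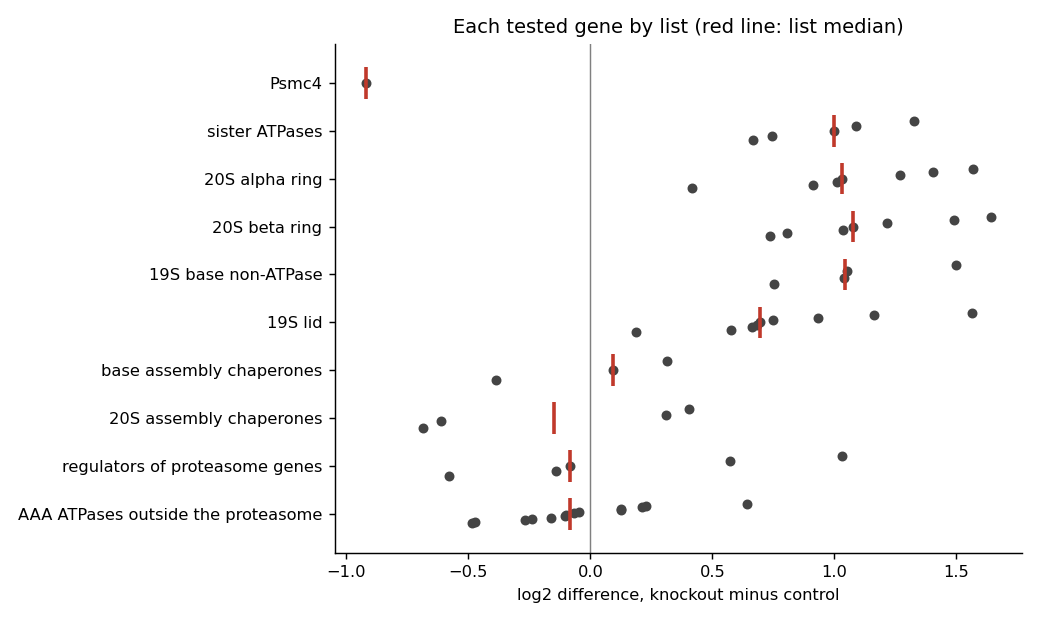
Log2 difference of knockout minus control for each tested gene, 1 point per gene, by list, with a red line at the list's median. Sister ATPases and the 4 lists of 20S and 19S subunits have medians of 0.70 to 1.08, while Psmc4 lies at -0.92 and the remaining lists have medians between -0.15 and 0.09.

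The genes most like Psmc4 over the 6 arrays, by Pearson's r among 15530 genes well above background on every array, were Col18a1 (0.988), Msto1 (0.981), Cks1b (0.981) and Macf1 (0.980), beside an unnamed transcript of the X chromosome. Their knockout minus control differences were -0.55, -0.66, -0.56 and -0.45, all smaller in size than that of Psmc4. Those most like the mean of the sisters were Blvrb, the biliverdin reductase B gene (r = 0.998), the superoxide dismutase gene Sod1 (0.996) and Nploc4 (0.995), a cofactor of p97, beside a pair of unnamed transcripts. They differed by 2.10 (SE 0.39), 1.11 (SE 0.26) and 1.24 (SE 0.26). With 6 arrays and so many genes, values of r this near to 1 are a description only.

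Since the sisters stood together, their promoters are shown for the targeted gene, for the sister with the largest difference and for the one with the smallest. The 250 bases before the annotated start come from RefSeq (GRCm38.p6), which listed 5 of the 6 genes, with 2 starts for Psmc2. Capitals mark matches, on either strand, to the antioxidant response element core that NRF1 and NRF2 bind (TGACNNNGC or TGAGNNNGC), to an ETS motif (ACTTCCG), to the GC box (GGGCGG) and to CCAAT. The motifs were chosen after the sequences were seen, and no printed matches overlapped.
Psmc4, minus strand of chr7:28050093-28050342: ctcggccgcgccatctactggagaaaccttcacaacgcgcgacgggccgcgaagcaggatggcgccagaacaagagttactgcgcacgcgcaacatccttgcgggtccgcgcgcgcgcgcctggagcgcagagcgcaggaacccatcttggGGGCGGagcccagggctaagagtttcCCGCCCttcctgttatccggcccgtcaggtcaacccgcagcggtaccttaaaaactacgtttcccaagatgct
Psmc6, plus strand of chr14:45329574-45329823: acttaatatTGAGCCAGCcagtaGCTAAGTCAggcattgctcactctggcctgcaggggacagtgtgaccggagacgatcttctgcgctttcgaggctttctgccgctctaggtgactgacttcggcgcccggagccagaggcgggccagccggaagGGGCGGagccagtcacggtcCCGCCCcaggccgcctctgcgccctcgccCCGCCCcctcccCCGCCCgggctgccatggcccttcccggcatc
Psmc1, plus strand of chr12:100109952-100110201: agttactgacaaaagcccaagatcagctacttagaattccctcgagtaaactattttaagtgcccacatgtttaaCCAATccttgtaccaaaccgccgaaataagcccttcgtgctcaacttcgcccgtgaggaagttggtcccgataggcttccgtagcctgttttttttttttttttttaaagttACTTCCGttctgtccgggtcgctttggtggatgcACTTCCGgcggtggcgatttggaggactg
Psmc6 held both forms of the response element core, TGACNNNGC at 227 to 219 and TGAGNNNGC at 241 to 233 bases before the start. Of 32851 annotated starts of all genes, 10.2% held the first and 14.4% the second in the same window. The promoters of Psmc4 and of the sisters Psmc5 and Psmc1 held neither, and 1 of the 2 starts of Psmc2 held TGAGNNNGC. Psmc3 was the gene without a listed start. The ETS motif, present at 4.9% of all starts, was found 2 times before Psmc1 and once before each start of Psmc2. GC boxes, present at 32.7% of all starts, were found 4 times before Psmc6, 2 times before Psmc4 and once before Psmc5, and CCAAT, at 33.8%, before Psmc1 and 1 start of Psmc2. A match is a run of letters and not a shown binding site, and a link between matches and the differences was not tested.

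Over the alternative settings tried, the sign of the difference held for all 9 probes. Psmc4 lay between -1.27 and -0.75 in 23 settings and Psmc6 between 0.95 and 1.42, while A_55_P2033863 of Psmc1 and A_55_P2121961 of Psmc3 had a lowest value of 0.20, with slide row as a block.

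**Figure D5:**
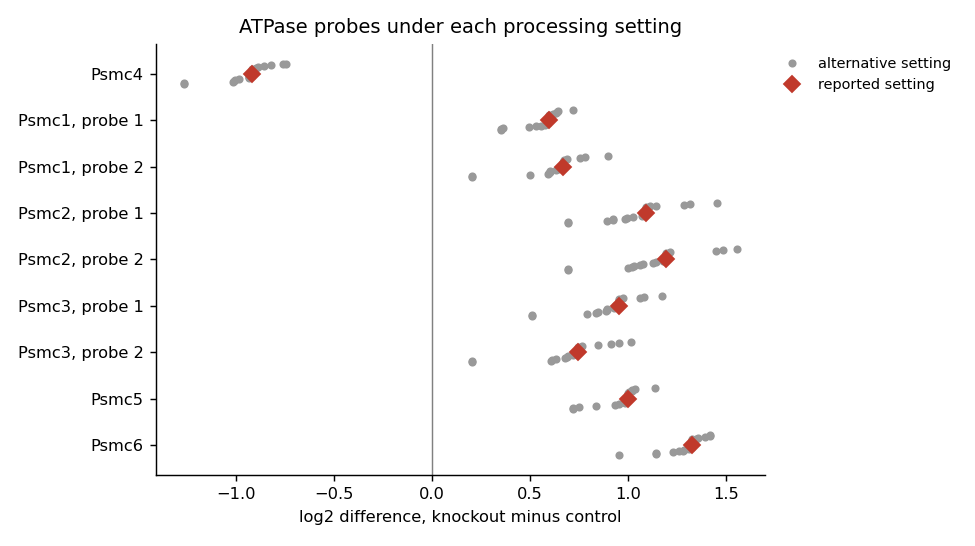
Log2 difference of knockout minus control for each probe under the reported setting (red diamonds) and under each alternative (grey points, 22 or 23 per probe). Psmc4 stays left of 0, from -1.27 to -0.75, and every sister point stays right of 0, the lowest at 0.20.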

How the data were processed

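Gene expression was measured on 6 arrays, 3 of knockout and 3 of control mice. Each scanner file holds linear intensity values, per the file headers, made with Agilent Feature Extraction 10.7.1.1 (the submitters' processing notes give 9.5.1.1). The authors' processed signal is background-subtracted and detrended within the array and not scaled between arrays, per the file headers. A further file holds processed values, and the deposited intensity values there have equal quantiles on every array (median 17.7, 75th percentile 83.8), so it was taken as quantile normalized by the authors, and served as an alternative. Flags per spot were used as deposited by the authors.

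Control and outlier-flagged spots were left out (131 to 150 flagged spots per array, 0 saturated), spots of 1 probe were averaged as log2 of the processed signal, and each array's 75th percentile was subtracted. Each probe was fitted with limma 3.58.1 (lmFit, eBayes; R 4.3.3, Python 3.11.15), over the 26109 probes that passed the scanner's background flag in every array of 1 or both groups, with Benjamini-Hochberg adjustment over all of them and a threshold of 0.05. Tests are 2-sided. Differences are knockout minus control. Probe positions are those of the files (mm9). Symbols were updated by transcript accession for lists (27235 of 55681 probes matched). Precision is limited by the 3 arrays a group (median SE 0.28). In 10 simulations of 26109 probes with 200 changed, the fit recovered 4.3% of 2-fold and 79.6% of 4-fold changes, with 6.76% of calls false. The simulated noise was normal and independent, with no slide row and no array standing apart, so these shares may not hold here.

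Named genes were every member probe, up to 2 genes of smallest p per list, and the 5 genes most like Psmc4 and most like the sisters. The members, lists and this rule were chosen with earlier results of these data known. Same-numbered knockout and control arrays are not stated to be paired. Alternatives are in the closing section.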

Additional observations from a re-analysis of the deposited data

How the results depend on the processing

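No alternative reversed the sign of the fitted knockout minus control difference of the 9 ATPase probes or of the 5 Psmc4 ratios. Some alternatives could not do so. The filters and the replicate block leave a probe's difference as it is, and scaling of whole arrays leaves the ratios as they are. Outside the fits, knockout 3 alone without scaling between arrays lay between -0.23 and 0.72 from the controls in the sister probes. The only probe that changed its side of the threshold was Psmc6, at 1.42 with array weights (limma, adjusted p = 0.0390). Over all probes, 0 were called higher and 0 lower in the reported fit. Array weights gave 39 higher and 42 lower, and quantile normalization, the deposited table and an adjusted p of 0.10 each gave 0 higher and 2 lower. The cause was not tested. With the replicate block, 0 probes were called, and Psmc4 read -0.92 (adjusted p = 0.479) and Psmc6 at 1.33 (adjusted p = 0.309). The deviations of same-numbered arrays correlated at 0.07, -0.01 and 0.08 for numbers 1, 2 and 3. Knockout 1 and knockout 3 correlated best with the control of their own number, and knockout 2 with control 1 (0.03). Values this small cannot decide whether the arrays were paired. When slide row was a block, and likewise in row 2 only, both of which set knockout 3 against the controls and take its spread from the other arrays, the list medians were 0.54 for the alpha ring, 0.79 for the non-ATPase base, 0.24 for the lid, 0.21 for base assembly chaperones and -0.26 for other AAA ATPases. Leaving out 1 array moved the base assembly chaperones between -0.18 and 0.22, with 3 genes. The filter on all arrays moved the 20S assembly chaperones to 0.31, as it removed Psmg2. In leave-one-out fits Psmc4 ranged from -1.02 to -0.75 and Psmc6 from 1.23 to 1.42. The unscaled setting moved the median of all probes by -0.07.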

Other observations

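Genes next to Psmc4 on chromosome 7 were looked up after its value was seen, by gene order in the RefSeq table. Of the 5 protein-coding genes on each side, 4 were tested, and their log2 differences were 0.19 (SE 0.28) for Zfp607a, 0.28 (SE 0.30) for Zfp850, 0.05 (SE 0.20) for Fbl, the gene of the nucleolar methyltransferase fibrillarin, and 0.26 (SE 0.23) for Dyrk1b, a protein kinase gene. In all 4 the groups overlapped, and none passed over all probes (limma, adjusted p from 0.948 to 0.983). None was lower in the mean, unlike Psmc4 at -0.92.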
